A study of Mus musculus with 6 samples.

Results

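The genes examined here are 40 regulators and effectors of the cell cycle and of DNA replication, taken as a list of symbols and sorted by role into 9 genes of the G1/S transition, 13 of replication, 14 of mitosis and 4 inhibitors. Of these, 37 were named by at least 1 probe of the array, with 76 probes among the 46632 on it. A gene counted as measured when a probe of it was detected on at least 3 of the 6 arrays, detection meaning that its signal lay above the negative control probes of that array at a p-value below 0.05. By this rule 35 genes were measured, by 63 probes. Mcm3, Mki67 and Ccnb1 were not analysed here, since no probe carried their symbol in the annotation table used, and Cdkn1a and Rb1 had probes that did not pass the detection rule.

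The study measured RNA of mouse lens ectoderm. Embryos were taken at embryonic day 9.5, the stage of the lens placode, a thickening of head ectoderm where it lies against the optic vesicle. The 3 wild-type samples (WT 1 to WT 3) and the 3 knockout samples (KO 1 to KO 3) shared a mixed background of C57BL6 and FVB. By the labels, the KO embryos lacked type I receptors of the bone morphogenetic protein (BMP) pathway in the placode. The titles name the line ALK23. Acvr1 encodes ALK2, and Bmpr1a encodes ALK3. Each sample was 1 Illumina BeadChip array made from 15 ng of total RNA, dissected by laser from frozen sections of 10 microns and amplified. Which Cre was used, which exons it removed and whether wild-type embryos carried it are not given in the sources used here. According to the series text RNA was pooled, without saying whether within or across embryos or how many made up a sample. The spread that p-values measure here is that between samples and may be technical. As the piece is a tissue, fewer cells of a type and less RNA per cell cannot be told apart.

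All 6 arrays lay on 1 slide, and the share of probes detected ran from 39.6% on WT 2 to 45.7% on KO 1. The Acvr1 probe had a normalized log2 intensity of 6.63, 8.73 and 7.58 on WT 1 to WT 3 and 7.51, 6.49 and 6.73 on KO 1 to KO 3. The brighter Bmpr1a probe was at 9.18, 9.86 and 9.70 against 9.60, 9.69 and 9.81. Both sets overlap, and since the position of these probes relative to the deleted exons is not given, they check nothing about the labels. Among lens ectoderm markers, Pax6, Sox2, Six3, Cdh1, Epcam, Krt8 and Krt18 were detected on all arrays. Foxe3, Pitx3 and Cryaa of the same list were not measured (detected on 2, 2 and 0 arrays). As lists, markers of optic vesicle, mesenchyme and blood were present on the arrays of both genotypes and varied within them. The blood marker Klf1 was detected on 3 WT and 0 KO arrays.

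The cell cycle runs as a chain of kinases and proteolysis steps. In G1, D-type cyclins with CDK4 or CDK6, and then E-type cyclins with CDK2, phosphorylate the RB protein and release E2F factors, which turn on genes for DNA replication. Origins are licensed by CDC6 and CDT1, which load the MCM helicase, and geminin holds CDT1 back until the next cycle. Mitotic genes rise later, under the DREAM and MMB-FOXM1 complexes, and CDK1 with cyclin B drives entry into mitosis, while CDC20 and the anaphase-promoting complex end it. In the lens lineage, cells of the placode and of the later anterior epithelium divide, and fibre cells leave the cycle with CDK inhibitors of the p27 and p57 type.

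The promoters of the members were searched for motifs of cell cycle genes, as a description with no test between groups. RefSeq windows (GRCm38.p6) were found for 32 of the 40 genes, 36 windows in all, and the 250 bases before each start were searched on both strands. The motifs, whose matches may overlap, were the CCAAT box, the cell cycle homology region CHR (TTTGAA or TTTAAA) through which DREAM and MMB bind mitotic genes, and an E2F-like motif. The E2F-like motif was TTGGCGC, and its variants spelled TTCCCGC, also TTGCCGC and then also TTCGCGC. An E2F-like motif lay in 7 of 12 windows of 11 replication genes (58.3%) and in 3 of 12 mitotic windows (25%), against 7.89% of all 32851 windows in the table. A CHR lay in 8 of 12 mitotic windows (66.7%) and in 2 of 12 replication windows (16.7%), against 25.2% of all windows. Within the 100 bases nearest the start, the CHR share was 50% of mitotic windows, 8.33% of replication windows and 9.71% of all windows. There the E2F-like share was 16.7% of replication windows, 8.33% of mitotic windows and 3.73% of all windows. The CCAAT box was found in 75% of replication windows, 83.3% of mitotic windows and 33.8% of all windows. Of 7 windows of 6 G1/S genes, 1 held an E2F-like motif (14.3%), 1 a CHR (14.3%) and 2 a CCAAT box (28.6%). Of 5 windows of 3 inhibitor genes, 1 held each motif (20%). A match is a run of letters and not a tested site. Whether each RefSeq start is the one used in this tissue was not tested. A window without a match, such as that of E2f1, need not be the active promoter. Below are 2 replication and 2 mitotic genes, with matches in capitals, read 5′ to 3′ on the gene's strand. Mcm6 and Mcm5, which encode helicase subunits, are shown for their E2F-like matches, and Cdk1 and Cdc20 for CHR matches close to the start. The Cdk1 window holds E2F-like matches too, and the Mcm5 window holds a CHR match far from the start.
Mcm6 (chr1:128359706-128359955, minus strand): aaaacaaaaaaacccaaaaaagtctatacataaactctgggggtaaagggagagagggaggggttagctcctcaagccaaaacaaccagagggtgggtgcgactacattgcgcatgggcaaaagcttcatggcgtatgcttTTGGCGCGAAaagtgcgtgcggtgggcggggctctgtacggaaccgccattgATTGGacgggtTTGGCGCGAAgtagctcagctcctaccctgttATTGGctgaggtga
Mcm5 (chr8:75109259-75109508, plus strand): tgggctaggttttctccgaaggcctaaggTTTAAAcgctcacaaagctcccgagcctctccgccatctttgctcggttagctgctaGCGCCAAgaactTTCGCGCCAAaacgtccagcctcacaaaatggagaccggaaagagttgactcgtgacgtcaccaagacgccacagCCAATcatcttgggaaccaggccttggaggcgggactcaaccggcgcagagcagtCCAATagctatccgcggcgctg
Cdk1 (chr10:69352913-69353162, minus strand): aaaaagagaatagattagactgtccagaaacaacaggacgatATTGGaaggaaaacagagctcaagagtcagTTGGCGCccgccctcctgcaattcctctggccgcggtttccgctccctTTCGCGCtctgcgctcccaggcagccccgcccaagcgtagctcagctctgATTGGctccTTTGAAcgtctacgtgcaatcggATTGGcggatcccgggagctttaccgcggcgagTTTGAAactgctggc
Cdc20 (chr4:118437344-118437593, minus strand): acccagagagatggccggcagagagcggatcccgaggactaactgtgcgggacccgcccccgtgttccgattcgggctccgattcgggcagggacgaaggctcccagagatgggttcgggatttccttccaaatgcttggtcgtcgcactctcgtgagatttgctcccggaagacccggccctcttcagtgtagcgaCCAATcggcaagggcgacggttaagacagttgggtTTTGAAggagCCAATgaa

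Between genotypes, the cell cycle genes gave no difference that passed the test. KO was set against WT with limma over all 20959 probes that passed the detection rule, with adjusted p-values (Benjamini-Hochberg) below 0.05 as the threshold. Of the 35 measured members 0 passed, as did 0% of all tested probes. At an unadjusted p below 0.05 there was 1 member, E2f1 (lower in KO), where 4.49% of all tested probes lay below that value, 2.89% higher and 1.6% lower in KO. Of the members 21 had a higher and 14 a lower mean in KO, where 50.9% of all tested probes were higher. Their median log2 fold change was 0.037, against 0.0075 over all tested probes. Over the 10099 genes with a tested probe, taken at their brightest probe as the members were, the median was -0.0064 and 4968 were higher in KO. The genotypes were fully separated for 1 of the 35 members, again E2f1, and for 9.82% of tested probes (KO above WT for 5.38%, below for 4.44%).

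A range in parentheses after a difference is its 95% interval from the fit. This interval stayed inside a 2-fold change for 24 of the 35 members (68.6%), against 40.7% of all tested probes and 45.7% of all genes at their brightest probe. For replication genes this was 11 of 12, for mitotic genes 7 of 12, for G1/S genes 5 of 9 and for inhibitors 1 of 2. The brightest probe of 33 of the 35 genes was detected on all 6 arrays, against 65.9% of all tested probes and 73.5% of all genes at their brightest probe, so the members are on the whole better detected than the table they are set against. For the dim members the interval bounds the signal and not the transcript.

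**Figure D1:**
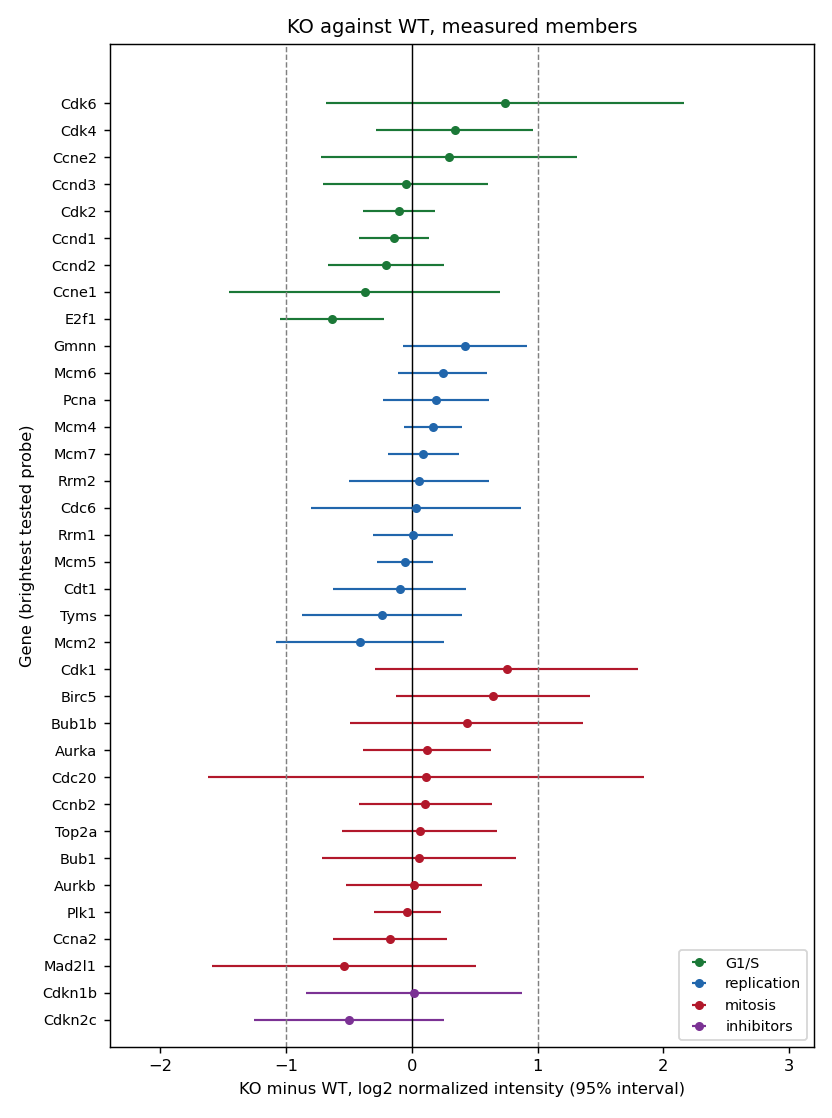
KO minus WT in log2 normalized intensity for the 35 measured genes, as the fitted difference with its 95% interval (3 arrays per genotype); dashed lines mark a 2-fold change. The interval of E2f1 is the only one of the 35 that excludes 0, and the interval of Mcm2 is the only one of the 12 replication genes that crosses a dashed line.

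E2f1, the transcription factor that activates G1/S and replication genes, was the member with the clearest separation. Its log2 intensity was 10.49, 10.07 and 10.17 on the arrays WT 1 to 3 and 9.71, 9.51 and 9.62 on KO 1 to 3. Every KO array thus lay below every WT array, by at least the step from WT 2 to KO 1. WT had a level of 10.25 ± 0.22 and KO one of 9.61 ± 0.10 (SD, n = 3), which is 1.55-fold lower in KO. The log2 difference was -0.63 (-1.04 to -0.22; limma adjusted p = 0.989, unadjusted p = 0.00745). Leaving out single arrays gave differences between -0.72 and -0.51, and the lowest adjusted p among these fits was 0.683. Their shared sign follows from the lack of overlap and adds nothing to it. Before normalization the intensities were 1603.3, 977.4 and 1163.3 in WT and 883.5, 760.4 and 984.5 in KO, so that KO 3 lay just above WT 2, the array with the lowest median intensity. The standard error over the beads of this probe was between 2.78% and 4.88% of its intensity on each array, from 29 to 45 beads. E2f1 had only 1 probe, so no second probe bears on it.

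The kinases and cyclins that act at G1/S had values of both signs. Of all 9 G1/S genes 3 had a higher and 6 a lower mean in KO, with a median log2 fold change of -0.10. Cdk6, a kinase partner of D-type cyclins, was the member with the largest positive value of this group, at 0.74 (interval -0.68 to 2.17). Its log2 intensity was 5.79, 7.15 and 6.97 on the arrays WT 1 to 3 and 6.85, 8.51 and 6.78 on KO 1 to 3. KO 2 was high and WT 1 low, and the other 4 arrays lay between 6.78 and 7.15, so the genotypes overlap. Without KO 2 the Cdk6 difference was 0.18, and without WT 1 it was 0.32. Cdk4, the related kinase, had 0.34 (interval -0.28 to 0.97) on its brightest probe, while its other probes gave -0.24 and -0.54. The brightest Cdk4 probe gave 0.075 without WT 1 and 0.64 without WT 3.

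Of the D-type cyclins, which relay growth signals to the cycle, Ccnd1 and Ccnd2 were among the bright members. Ccnd3 was dimmer, with a mean of 9.87 in WT and 9.82 in KO. Ccnd1 had a log2 intensity of 12.78, 13.15 and 13.09 on the arrays WT 1 to 3 and 12.72, 12.89 and 12.99 on KO 1 to 3, a difference of -0.14 with an interval from -0.42 to 0.14. Ccnd2 had -0.20 (-0.66 to 0.25) and Ccnd3 -0.048 (-0.70 to 0.61), and all 3 intervals lie within a 2-fold change. The other tested Ccnd1 probes gave 0.13, 0.032, 0.10 and -0.86, the last from a probe detected on 2 arrays of each genotype. A dimmer Ccnd2 probe was at 6.65, 6.45 and 6.13 on the arrays WT 1 to 3 and 6.98, 6.66 and 7.67 on KO 1 to 3, without overlap, a difference of 0.70 (-0.31 to 1.70) that did not pass. The second Ccnd2 probe gave 0.065.

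The E-type cyclins, which activate CDK2 at the start of S phase, had values of opposite sign that rested on WT 3. Ccne1 was at -0.37 (-1.45 to 0.70) and its second probe at -0.16, and Ccne2 was at 0.30 (-0.72 to 1.32). Without WT 3 they were at -0.0025 and 0.011, and Ccne2 was at 0.059 without KO 2. The Ccne1 intensity was 6.25, 6.56 and 7.52 on the arrays WT 1 to 3 and 6.81, 6.41 and 5.97 on KO 1 to 3, high on WT 3 and lowest on KO 3, with the other arrays between. Cdk2 itself had -0.10 (-0.39 to 0.19) on its brightest probe and -0.85, -0.11 and 0.22 on dimmer ones.

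Replication genes had the smallest spread between arrays of the 4 groups. Of the 12 measured, 8 had a higher and 4 a lower mean in KO, with a median log2 fold change of 0.046, and single values ran from -0.41 for Mcm2 to 0.42 for Gmnn. Within a genotype, the SD of a gene between arrays had a median of 0.21 over this group. It was 0.43 over all tested probes and 0.40 over all genes at their brightest probe. A low spread was not particular to this group, as the anaphase-promoting complex list below had a median of 0.17. The part of probe brightness in the spread was not tested. None of the 12 replication genes had an unadjusted p below 0.05, and the lowest was 0.0853.

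Among the licensing factors, Gmnn (geminin, the inhibitor of CDT1) had a log2 intensity of 9.53, 8.98 and 9.20 on the arrays WT 1 to 3 and 9.70, 9.5 and 9.77 on KO 1 to 3. WT 1 lay above KO 2, so the genotypes overlap, and the difference was 0.42 (-0.073 to 0.92; limma adjusted p = 0.989). Cdt1, its target, was at -0.095 (-0.62 to 0.43). Cdc6, which loads the helicase with CDT1, was at 0.037 (-0.80 to 0.87), and at -0.26 on its second probe.

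The MCM genes encode the replicative helicase, and 5 of its 6 subunits were measured. On their brightest probes, Mcm4, Mcm6 and Mcm7 had small positive values of 0.17 (-0.061 to 0.40), 0.25 (-0.11 to 0.60) and 0.092 (-0.19 to 0.37). Mcm5 was at -0.053 (-0.28 to 0.17). The second probe gave -0.14 (-1.38 to 1.11) for Mcm4, of opposite sign, and 0.43 (-0.70 to 1.56) for Mcm7. Mcm6 had a log2 intensity of 11.11, 10.82 and 11.24 on the arrays WT 1 to 3 and 11.47, 11.13 and 11.30 on KO 1 to 3, highest on KO 1 and lowest on WT 2. Its second probe gave 0.87 (-0.14 to 1.87) and another -0.22, so the 3 probes differ in sign. Mcm2 was at 11.48, 10.16 and 11.03 on the arrays WT 1 to 3 and 10.44, 10.55 and 10.45 on KO 1 to 3. The WT arrays of Mcm2 span more than the KO arrays and enclose them, and the difference was -0.41 (-1.08 to 0.26), moving to -0.12 without WT 1 and -0.78 without WT 2.

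The sliding clamp and the nucleotide-supply enzymes had intervals within a 2-fold change. Pcna, the clamp that holds polymerases on DNA, was at 0.19 (-0.23 to 0.61). The 2 subunits of ribonucleotide reductase, Rrm1 and Rrm2, were at 0.0078 (-0.31 to 0.33) and 0.056 (-0.50 to 0.61), and thymidylate synthase, Tyms, at -0.24 (-0.87 to 0.40). Dimmer probes of these genes had wider intervals. The second Rrm1 probe was at 7.80, 9.39 and 6.17 on the arrays WT 1 to 3 and 6.72, 6.48 and 6.86 on KO 1 to 3, high on WT 2, and gave -1.10 (-2.81 to 0.61), while the other tested Tyms probes gave -0.092 and 0.0087.

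Mitotic genes included the largest value of all members. Of the 12 measured, 9 had a higher and 3 a lower mean in KO, with a median log2 fold change of 0.086. Cdk1, the kinase that drives entry into mitosis, had that value, at 0.76 (-0.29 to 1.80, limma adjusted p = 0.989). Its log2 intensity was 6.44, 6.44 and 6.97 on the arrays WT 1 to 3 and 6.92, 7.26 and 7.94 on KO 1 to 3. KO 3 was the highest and WT 1 and WT 2 the lowest, while WT 3 lay above KO 1.

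Birc5, the survivin subunit of the chromosomal passenger complex, had 8.67, 10.00 and 9.63 on the arrays WT 1 to 3 and 10.41, 9.79 and 10.05 on KO 1 to 3 on its brightest probe, a difference of 0.65 (-0.13 to 1.42). WT 1 was the lowest array on all 3 Birc5 probes, and the other probes gave only 0.15 and 0.10. Without WT 1 the difference on the brightest probe was 0.26. Aurkb, the kinase of the same complex, was at 0.018 (-0.52 to 0.56).

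Cdc20, the activator of the anaphase-promoting complex, varied more between arrays of one genotype than any other member, and is given in full for that reason, chosen after its values were seen. The brightest probe was at 7.33, 10.86 and 9.87 on the arrays WT 1 to 3 and 9.12, 9.34 and 9.94 on KO 1 to 3. Both extremes are WT arrays. A second probe had the same extremes, at 7.29, 10.89 and 9.92 on the arrays WT 1 to 3 and 9.06, 9.0 and 9.91 on KO 1 to 3. The remaining probe ran differently, at 9.36, 8.54 and 8.92 on the arrays WT 1 to 3 and 9.84, 9.29 and 9.72 on KO 1 to 3, with WT 1 above WT 2. The differences between genotypes were 0.12 (-1.62 to 1.85), -0.045 (-1.83 to 1.74) and 0.68 (0.055 to 1.30, limma adjusted p = 0.989). For the brightest probe, the standard error over beads was between 2.36% and 4.81% of the intensity on each array, while its intensity before normalization ran from 228.7 on WT 1 to 1648.8 on WT 2. Without WT 1 the difference was -0.89 and without WT 2 it was 0.87.

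**Figure D2:**
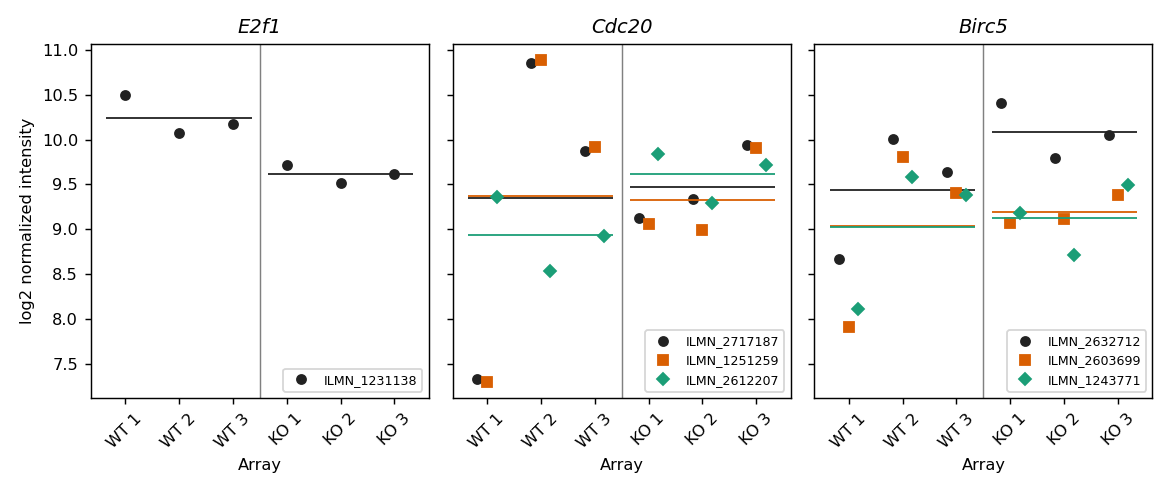
Log2 normalized intensity of every tested probe of E2f1, Cdc20 and Birc5 on the 6 arrays; each symbol is 1 probe on 1 array and each line the mean of 3 arrays. E2f1 separates the genotypes, 2 of 3 Cdc20 probes run from 7.29 or 7.33 on WT 1 to 10.86 or 10.89 on WT 2, and all 3 Birc5 probes are lowest on WT 1.

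The spindle checkpoint genes had values of both signs. Mad2l1, which holds CDC20 inactive, was at 8.53, 8.23 and 7.18 on the arrays WT 1 to 3 and 7.55, 7.12 and 7.66 on KO 1 to 3, a difference of -0.54 (-1.58 to 0.51). WT 1 and WT 2 were high, and WT 3 lay among the KO arrays. The checkpoint kinases Bub1 and Bub1b were at 0.057 (-0.71 to 0.83) and 0.44 (-0.49 to 1.36), and the second Bub1 probe at 0.11.

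Among the other kinases and structural genes, Plk1, the polo-like kinase, was at 12.35, 12.04 and 12.22 on the arrays WT 1 to 3 and 12.19, 12.06 and 12.28 on KO 1 to 3, a difference of -0.033 (-0.30 to 0.23), though a dimmer Plk1 probe gave -0.28 (-1.47 to 0.91). Aurka, the spindle pole kinase, was at 0.12 (-0.38 to 0.63), Ccna2, the cyclin of S and G2 phase, at -0.17 (-0.63 to 0.28), and Top2a, the topoisomerase that separates chromosomes, at 0.063 (-0.55 to 0.68), with -0.0086 from a second probe. Ccnb2, a mitotic cyclin detected on 1 WT and 2 KO arrays, lay between 5.32 and 6.05 on all arrays, near the detection floor, with 0.11 (-0.42 to 0.64).

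The inhibitors were the least well measured group. Cdkn1b, which encodes p27, was at 7.78, 8.04 and 8.46 on the arrays WT 1 to 3 and 7.61, 8.18 and 8.55 on KO 1 to 3, a difference of 0.020 (-0.84 to 0.88), with the arrays of both genotypes interleaved. A dimmer Cdkn1b probe gave 0.88 (-0.40 to 2.16), with its highest level, 7.96, on KO 3. Cdkn2c, which encodes p18, an inhibitor of CDK4 and CDK6, was at 6.76, 6.23 and 6.14 on the arrays WT 1 to 3 and 6.18, 5.46 and 5.99 on KO 1 to 3, a difference of -0.50 (-1.26 to 0.26). It was detected on 3 WT and 2 KO arrays, and KO 2, at 5.46, was below the lowest detected value there (5.71).

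Cdkn1a and Rb1 stayed below the detection rule. Cdkn1a, the p53-responsive inhibitor p21, was at 7.0, 5.24 and 5.27 on the arrays WT 1 to 3 and 7.28, 5.42 and 5.30 on KO 1 to 3 on its brighter probe. It was detected on WT 1 and KO 1 and near the floor on the other 4 arrays, which makes 1 array of each genotype. Rb1, the pocket protein that holds E2F factors, was detected on 0 WT and 2 KO arrays. Its level was 5.64, 5.19 and 5.63 in WT and 5.96, 5.42 and 5.85 in KO. No fold is given for either.

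Probes of the same gene were often at odds. Of the 17 members with 2 or more tested probes, 11 had probes that differed in sign. Over all 63 tested probes of the members 35 had a higher and 28 a lower mean in KO, the median was 0.020, and 2 did not overlap between genotypes (3.17%, against 9.82% of all tested probes). At an unadjusted p below 0.05 there were 2 of the 63, E2f1 (lower in KO) and 1 Cdc20 probe (higher), against 4.49% of all tested probes.

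**Figure D3:**
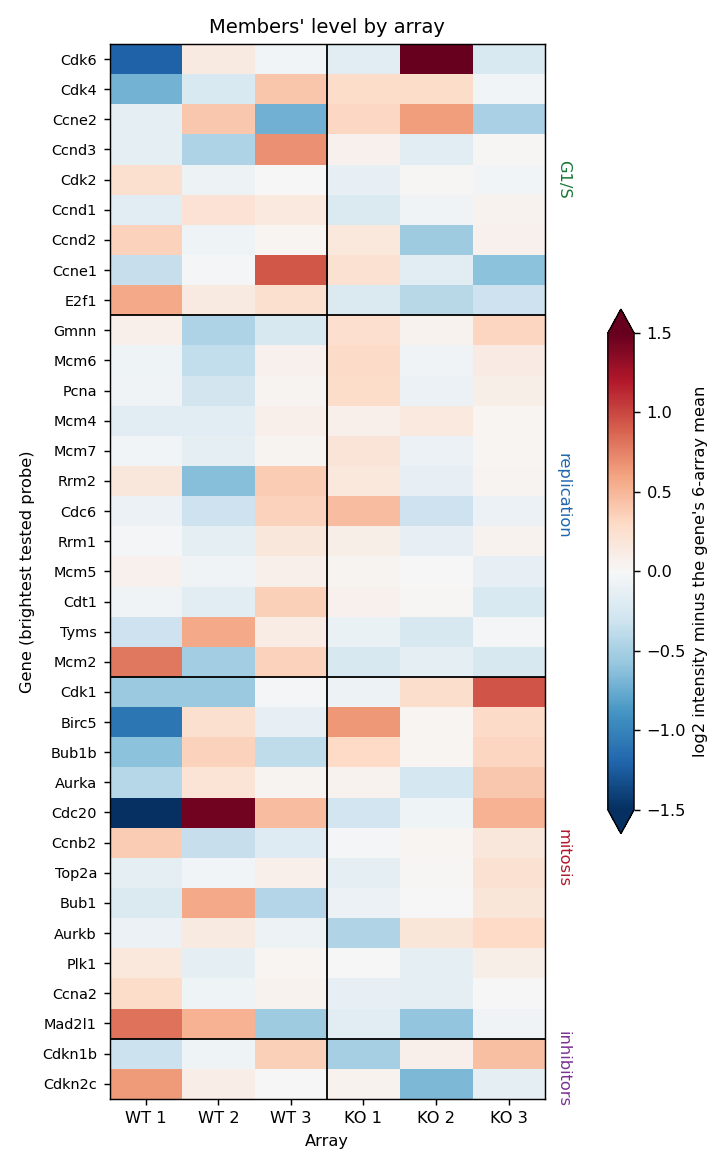
Log2 normalized intensity of each measured gene on each array, minus its mean over the 6 arrays; rows are the 35 genes by group, sorted by KO minus WT, and columns the arrays, with colours saturating at 1.5 in either direction. Replication genes are mostly blue on WT 2 and red on WT 3 and KO 1, mitotic genes are mostly red on KO 3, and only the row of E2f1 changes colour cleanly at the line between genotypes.

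Members of a group also shared high and low arrays. Replication genes were low together on WT 2, where 1 of 12 lay above its 6-array mean, and 8 of 12 had their lowest value there. They were high together on WT 3 and KO 1, with 11 and 10 of 12 above their means. Over all tested probes, 47.4% lay above their means on WT 2, 51.9% on WT 3 and 49.5% on KO 1, and 25.1% had their lowest value on WT 2. For all genes at their brightest probe, as the members were taken, these shares were 45.7%, 56.8%, 51.7% and 26.7%. The median deviation of replication genes was -0.044, -0.22 and 0.094 on WT 1 to WT 3 and 0.13, -0.083 and 0.029 on KO 1 to KO 3.

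Mitotic genes had another order of arrays. On KO 3, 11 of 12 lay above their means, where 52.1% of all tested probes did. The median deviation of this group was -0.18, 0.17 and -0.049 on WT 1 to WT 3 and -0.082, 0.0060 and 0.26 on KO 1 to KO 3. On WT 2 the mitotic and the replication genes thus had medians on opposite sides of 0. The further genes listed below shared only part of these orders. Of 39 origin and fork genes 17 (43.6%) had their lowest value on WT 2, but 26 lay above their means on WT 1, where 4 of 12 replication members did. Of 31 spindle and kinetochore genes 24 (77.4%) lay above their means on KO 3, but their lowest median, -0.065, was on WT 3 and not on WT 1. On WT 2 the medians of these lists, -0.17 and -0.015, were both below 0, unlike those of the members. These counts describe 6 arrays and carry no test.

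Markers of the lens and of its neighbours also varied between arrays. The mean log2 level of the 7 measured of 10 lens ectoderm markers ranged from 9.44 to 10.06 in WT and from 9.39 to 10.09 in KO. The next list held 6 genes named here as lens fibre markers (Prox1, Maf, Cryab, Cryba1, Crygb and Cryge). Whether fibre cells were present was not tested. The mean log2 level of these genes ranged from 6.88 to 9.76 in WT and from 7.26 to 8.92 in KO. Their medians lay above the 6-array mean on WT 2, KO 2 and KO 3. Mitotic genes had a median above their means on the same 3 arrays, on KO 2 only by 0.0060. Lens ectoderm markers did too, with median deviations of 0.35, 0.26 and 0.29 on WT 2, KO 2 and KO 3. Periocular mesenchyme markers were at -0.92, -0.55 and -0.68 on these arrays. On the remaining arrays the medians of both lists had the opposite sign. The 5 measured of 8 optic vesicle and pigment markers ranged from 6.13 to 8.66 in WT and from 6.48 to 8.15 in KO and were lowest on WT 2, the array on which replication genes were lowest, while Tyr and Tyrp1 were not measured. The 6 measured of 8 periocular mesenchyme markers ranged from 7.44 to 8.70 in WT and from 7.52 to 8.47 in KO, and also were lowest on WT 2. The 5 measured of 8 blood markers ranged from 8.33 to 9.68 in WT and from 7.88 to 9.07 in KO, highest on WT 1. Of these 5, 1 had a higher and 4 a lower mean in KO. Klf1 had a difference of -1.08 (-2.04 to -0.12; limma adjusted p = 0.989). Every KO array lay below every WT array for Klf1, as for 4.44% of all tested probes. The 3 measured endothelial and 3 measured neuronal markers, of 6 listed each, ranged from 6.85 to 7.98 and 6.79 to 7.37 in WT and from 6.38 to 8.47 and 6.52 to 7.35 in KO. The part of these tissues in the levels of the cell cycle genes was not tested.

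**Figure D4:**
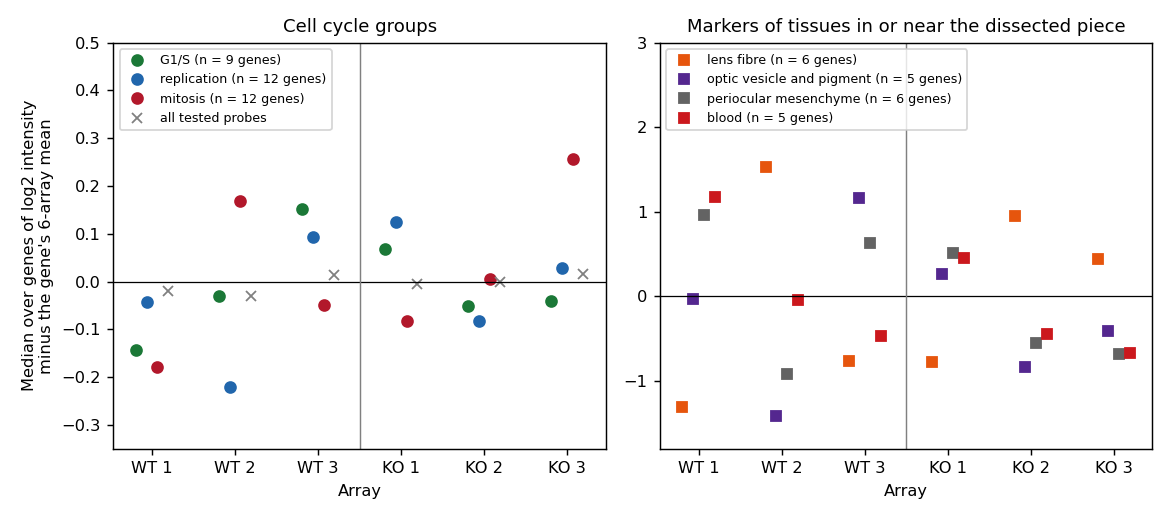
Median over genes of the log2 intensity minus each gene's 6-array mean, on each array, for 3 cell cycle groups and all tested probes (left) and for 4 marker lists (right); the vertical scales differ, and points of 1 array are set side by side. Replication genes are lowest on WT 2 at -0.22 and mitotic genes highest on KO 3 at 0.26, while the marker lists shift by up to 1.53.

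The wider machinery was read from 4 further lists of cell cycle genes (origin and fork, spindle and kinetochore, E2F and CDK regulators, anaphase-promoting complex). Of their 115 genes 103 were measured, and KO had the higher mean for 49 and the lower for 54. None of the 103 passed, and the median log2 fold change was -0.013. At an unadjusted p below 0.05 there was 1 of the 103, against 4.49% of all tested probes. The genotypes did not overlap for 10 of them (9.71%), close to the 9.82% of all tested probes.

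The gene below that unadjusted p was Cdc25c, a phosphatase that activates CDK1, at 7.19, 6.84 and 7.21 on the arrays WT 1 to 3 and 8.07, 8.44 and 8.06 on KO 1 to 3. Every KO array lay above every WT array on this probe, with a difference of 1.11 (0.26 to 1.96; limma adjusted p = 0.989). Its other probes gave 0.13 and -0.14. Lin54, a DNA-binding subunit of the DREAM complex, was at -1.06 (-2.23 to 0.11), with -0.56 from its second probe.

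In the other lists the largest values were smaller. Of 39 measured origin and fork genes 17 were higher and 22 lower, with Rpa3, a subunit of the single-strand binding protein, at 0.56 (-0.0016 to 1.12, every KO array above every WT array) and Pola2, a polymerase alpha subunit, at 0.49 (-0.59 to 1.57). Of 31 spindle and kinetochore genes 16 were higher and 15 lower, with Espl1, the separase, at -0.71 (-2.11 to 0.68) and Ncaph, a condensin subunit, at 0.46 (-0.53 to 1.45). Of 12 genes of the anaphase-promoting complex 6 were higher and 6 lower, with Fbxo5, its inhibitor EMI1, at 0.66 (-0.30 to 1.63) and the subunit gene Cdc23 at 0.40 (-0.42 to 1.23, and -0.66 from a second probe). Of 10 measured p53 targets, a list that borders on Cdkn1a, 4 were higher and 6 lower, with Btg2, an antiproliferative gene, at -0.99 (-2.06 to 0.074) and Zmat3 at -0.85 (-1.98 to 0.27). None of these passed (limma adjusted p = 0.989 for each).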

How the data were processed

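Gene expression was measured on 6 Illumina BeadChip arrays, 3 WT and 3 KO. The deposited non-normalized table holds for each probe and array, per the file headers, its intensity (average signal), the number of beads with their standard error, and a detection p-value; the deposited detection p-value moves in steps that correspond to 1603 negative controls. The submitters' processing notes name GenomeStudio, without a version. The deposited series matrix holds processed intensity, linear and partly below 0, made by a method not given in the sources used here; it served as an alternative. Its columns have medians from 18.51 (KO 2) to 18.54 (WT 2) and a rank correlation of 1 with the raw intensity of their own array, which settles their direction.

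Intensities were corrected by normexp with controls inferred from detection p-values, raised by 16, quantile normalized and log2 transformed with neqc (limma 3.58.1, R 4.3.3). Probes detected (p below 0.05) on at least 3 arrays were tested by lmFit and eBayes with a variance trend, KO minus WT without covariates, two-sided, with Benjamini-Hochberg adjustment over 20959 probes. The script was tested on simulated data, where added changes had to be recovered at a low spread between arrays. That check does not measure which changes would pass at the spread of these data. The brightest tested probe stands for a gene, and the other tested probes of a member are given beside it. Gene symbols came from the platform annotation (29976 probes with 1 symbol, 10 with several, 16646 unnamed), and promoter windows and chromosomes from RefSeq (GRCm38.p6). The number of arrays limits the precision. Named genes are all members, with values by array for the 3 largest differences of each group, and the 2 largest of each further list. The members and lists were chosen with earlier results of these data known. Same-numbered samples had deviations that correlated at 0.11, 0.14 and -0.0076, and differently numbered ones at -0.19 to 0.13. With so few arrays this does not settle whether the numbers pair the samples. The main fit took the samples as unpaired. Alternatives left out each array, added a replicate block, changed the detection filter, the offset, the variance trend or the choice of probe, or used the deposited values.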

Additional observations from a re-analysis of the deposited data

How the results depend on the processing

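No probe passed in any of the 12 alternative fits, and no member did. In the fits on the 20959 probes, the number at an unadjusted p below 0.05 ran from 579 (without KO 3) to 1485 (without WT 3). It was 1961 of all 46632 probes with no detection filter, and 617 of the 13819 probes detected on all 6 arrays. The number of members ran from 1 to 4. The 4 members were found without WT 1, where 1174 of the 20959 probes lay below that value. With the replicate block, 0 probes and 0 members passed, and 986 probes had an unadjusted p below 0.05. The medians of all members and of the G1/S, replication and mitotic groups moved by less than 1 SD between arrays in each alternative run, but that SD exceeds each of these medians in size. With single arrays left out, the median ran from -0.017 to 0.092 for all members, from -0.17 to 0.011 for G1/S, from -0.040 to 0.18 for replication and from -0.041 to 0.17 for mitosis, so all 4 changed sign: the first without WT 1, WT 2 or KO 3, G1/S without KO 2, replication without WT 2 or KO 1, and mitosis without WT 1 or KO 3. The median of the inhibitors rests on 2 genes, at -0.24; it was 0.020 with detection on all 6 arrays (1 gene left), 0.092 without a detection filter (4 genes) and -0.025 with the mean over probes. Of the 35 measured members, 21 kept their sign when any 1 array was left out and 14 did not. The ranges of those 14 over the 6 fits were -0.34 to 0.011 (Ccnd2), -0.29 to 0.28 (Ccnd3), -0.20 to 0.27 (Cdkn1b), -0.059 to 0.29 (Aurka), -0.12 to 0.25 (Aurkb), -0.15 to 0.36 (Bub1), -0.039 to 0.33 (Ccnb2), -0.89 to 0.87 (Cdc20), -0.12 to 0.041 (Plk1), -0.035 to 0.15 (Top2a), -0.18 to 0.22 (Cdc6), -0.20 to 0.062 (Cdt1), -0.066 to 0.092 (Rrm1) and -0.25 to 0.26 (Rrm2), and the cause was not tested. No member changed sign with an offset of 50 or with the deposited values. With 3 arrays per genotype on 1 slide, slide could not be tested, and the offset shrinks differences of dim probes.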
